A study of Mus musculus with 18 samples.

Results

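The genes described here are 10 chaperones and regulators of the endoplasmic reticulum (ER), *Hspa5*, *Hsp90b1*, *Xbp1*, *Dnajb9*, *Herpud1*, *Pdia4*, *Sdf2l1*, *Hyou1*, *Calr* and *Atf6*. They were chosen by gene symbol from the 31053 genes listed in an RNA-Seq experiment on mouse bone marrow-derived macrophages (BMDM), and all 10 were found once and passed the filter on low counts. In brief, *Herpud1* was lower with OxLDL over both genotypes, 1 of 10 members called where 5.39% of all genes were. The call held in 21 of 25 alternative fits and was lost without a control library or the libraries of some mice. It was not reached in either genotype alone in this fit. A fit that compares the media within each mouse called 5.85% of all genes with AcLDL and 11.3% with OxLDL. In it, *Herpud1* also passed with AcLDL and *Calr* passed with OxLDL. Neither of these passed in the fit of all libraries without that term. No member passed the test between the genotypes.

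Proteins that enter the ER are folded with the help of chaperones such as BiP (*Hspa5*), and when unfolded proteins accumulate, a set of sensors starts the unfolded protein response (UPR), which raises the transcription of chaperones and of genes for the removal of misfolded proteins. ATF6 is a sensor that is cleaved to release a transcription factor, and XBP1 is a transcription factor whose mRNA is spliced by the sensor IRE1 (*Ern1*). Macrophages that take up modified low-density lipoprotein (LDL) become foam cells, and ER stress has been studied in these cells because free cholesterol can disturb the ER membrane. Gene counts do not separate spliced from unspliced *Xbp1* and do not show the cleavage of ATF6, so neither step was measured here.

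The macrophages came from 12-week-old mice on a C57Bl/6J background, 3 with the *Slc7a7* gene deleted in myeloid cells (Slc7a7-/-, knockout) and 3 corresponding controls (Slc7a7+/+, wild type). Cre was driven by the lysozyme M gene *Lyz2*, a gene of the myeloid lineage, and *Slc7a7* encodes a subunit of an amino acid transporter for cationic and neutral amino acids. Cells of each mouse, 100000 per library, received acetylated LDL (AcLDL, 50 μg/mL), oxidized LDL (OxLDL, 100 μg/mL) or the vehicle PBS (control) for 24 h, which gave 18 libraries in 6 groups of 3. Whether the wild type mice also carried Cre is not given in the sources used here. Because the doses of the LDLs differed and both were compared with the same control libraries, their values are given side by side and were not tested against each other.

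Promoter sequences of the members are shown because some UPR targets carry a recognised ER stress element close to the start of transcription. Of the 10 members, 8 had an entry among the RefSeq promoters (GRCm38.p6, from 250 bases before to 50 bases after each start), and both strands were searched. The ER stress element (ERSE) was taken as CCAAT and CCACG with 9 bases between them, ERSE-II as ATTGG, any base and CCACG, and the UPR element as TGACG directly followed by TGG. An ERSE always holds a CCAAT, and the ATTGG of ERSE-II is its reverse complement. The ERSE was found in the promoters of *Hspa5*, *Hsp90b1* and *Calr*, against 0.119% of 32851 promoters of the same length, and ERSE-II in that of *Herpud1*, against 0.037%. The lines below give each stretch in the direction of its gene, with 5 bases on either side and the match in capitals. The second *Hsp90b1* match and the *Calr* match lie on the opposite strand.

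*Hspa5*, chr2:34772020-34772048, plus strand: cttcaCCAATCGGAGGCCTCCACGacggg
*Hsp90b1*, chr10:86705633-86705661, minus strand: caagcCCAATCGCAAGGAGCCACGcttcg
*Hsp90b1*, chr10:86705528-86705556, minus strand: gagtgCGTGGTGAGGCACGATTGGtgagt
*Calr*, chr8:84847070-84847098, minus strand: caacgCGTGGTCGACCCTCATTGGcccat
*Herpud1*, chr8:94386372-94386392, plus strand: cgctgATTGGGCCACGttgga

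The matches started 65 bases upstream of the RefSeq start in *Hspa5*, 212 and 107 bases in *Hsp90b1*, 162 bases in *Calr* and 52 bases in *Herpud1*. The UPR element was in 0.676% of all promoters and in 0 of the 8 members' promoters. A match describes the letters in this window only, and these data hold no measure of factor binding.

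The deleted gene was read first. *Slc7a7* was at 11.1, 12.6 and 21.1 CPM (reads of the gene scaled to a library of common size, by edgeR's TMM method) in wild type control libraries and at 10.2, 4.33 and 5.16 CPM in knockout control libraries. With AcLDL it was at 28.5, 23.6 and 23.8 CPM in wild type and at 2.36, 2.22 and 5.22 CPM in knockout cells. With OxLDL the values were 28.7, 25.9 and 29.3 CPM against 10.1, 10.9 and 8.67 CPM. The knockout libraries were below the wild type libraries of the same medium in every case, and the difference passed the edgeR test with AcLDL (adjusted p = 0.000472) but not in control medium (adjusted p = 1.0) or with OxLDL (adjusted p = 0.276, and 0.00303 with no filter on low counts).

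Total counts per library ranged from 1043492 to 1768816, and 3 counts corresponded to between 1.67 and 2.85 CPM. The libraries of wild type mouse 1 were among the shallowest. All 8 macrophage markers read (*Adgre1*, *Csf1r*, *Cd68*, *Itgam*, *Fcgr1*, *Mertk*, *Cd14* and *Lyz2*) were detected, and without *Lyz2*, the locus that carries Cre, they summed to between 3414 and 7136 CPM. Neutrophil markers were detected at low levels, 7 of 8 with a sum between 25.5 and 252 CPM and *Ly6g* at 0 counts. Stromal markers summed to at most 26.9 CPM, dendritic, lymphoid and erythroid markers to at most 5.20, 3.15 and 2.19 CPM, and *Lum*, *Cd79a*, *Ms4a1*, *Nkg7* and *Hba-a2* were at 0 counts. In bulk libraries, fewer cells of a type and less RNA per cell cannot be told apart.

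The members spanned a wide range of levels. Per length (CPM per kilobase of all annotated exon bases, mean over 6 mice ± SD), *Calr* was highest at 334 ± 19.7, followed by *Hsp90b1* at 206 ± 16.2 and *Hspa5* at 159 ± 13.7. Calreticulin (*Calr*) is a calcium-binding lectin chaperone, GRP94 (*Hsp90b1*) is the HSP90 of the ER and BiP is its HSP70. *Pdia4*, a protein disulfide isomerase, followed at 65.7 ± 2.82. *Sdf2l1*, which forms a complex with ER chaperones, was at 39.9 ± 3.29 and *Xbp1* at 38.8 ± 2.22, and these neighbours did not differ beyond their spread over mice. *Atf6* was at 19.8 ± 2.71 and *Hyou1*, a large HSP70-like protein that serves as nucleotide exchange factor of BiP, at 15.6 ± 1.16. *Herpud1*, a membrane protein of ER-associated degradation, was at 13.3 ± 2.69 and *Dnajb9*, a J-domain cofactor of BiP, at 12.7 ± 0.763, and these also overlapped. Mice ranged from 302 to 358 for *Calr*, from 178 to 222 for *Hsp90b1* and from 137 to 176 for *Hspa5*, so that the 6 mice did not overlap between *Calr* and *Hsp90b1* or between *Hsp90b1* and *Hspa5*. With the longest transcript as length, *Xbp1* stood at 59.2 and *Sdf2l1* at 39.9, and *Hyou1* at 22.9 against 25.2 for *Atf6*.

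The members were also stable across the 18 libraries. The ratio of the highest to the lowest CPM was between 1.35 (*Xbp1*) and 1.97 (*Dnajb9*) for 9 members and 3.54 for *Herpud1*. The lowest counts in any library were 23 reads for *Herpud1*, 26 for *Dnajb9* and 42 for *Sdf2l1*, against 600 or more for *Hspa5*, *Hsp90b1* and *Calr*, so that the former had the wider counting error.

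**Figure D1:**
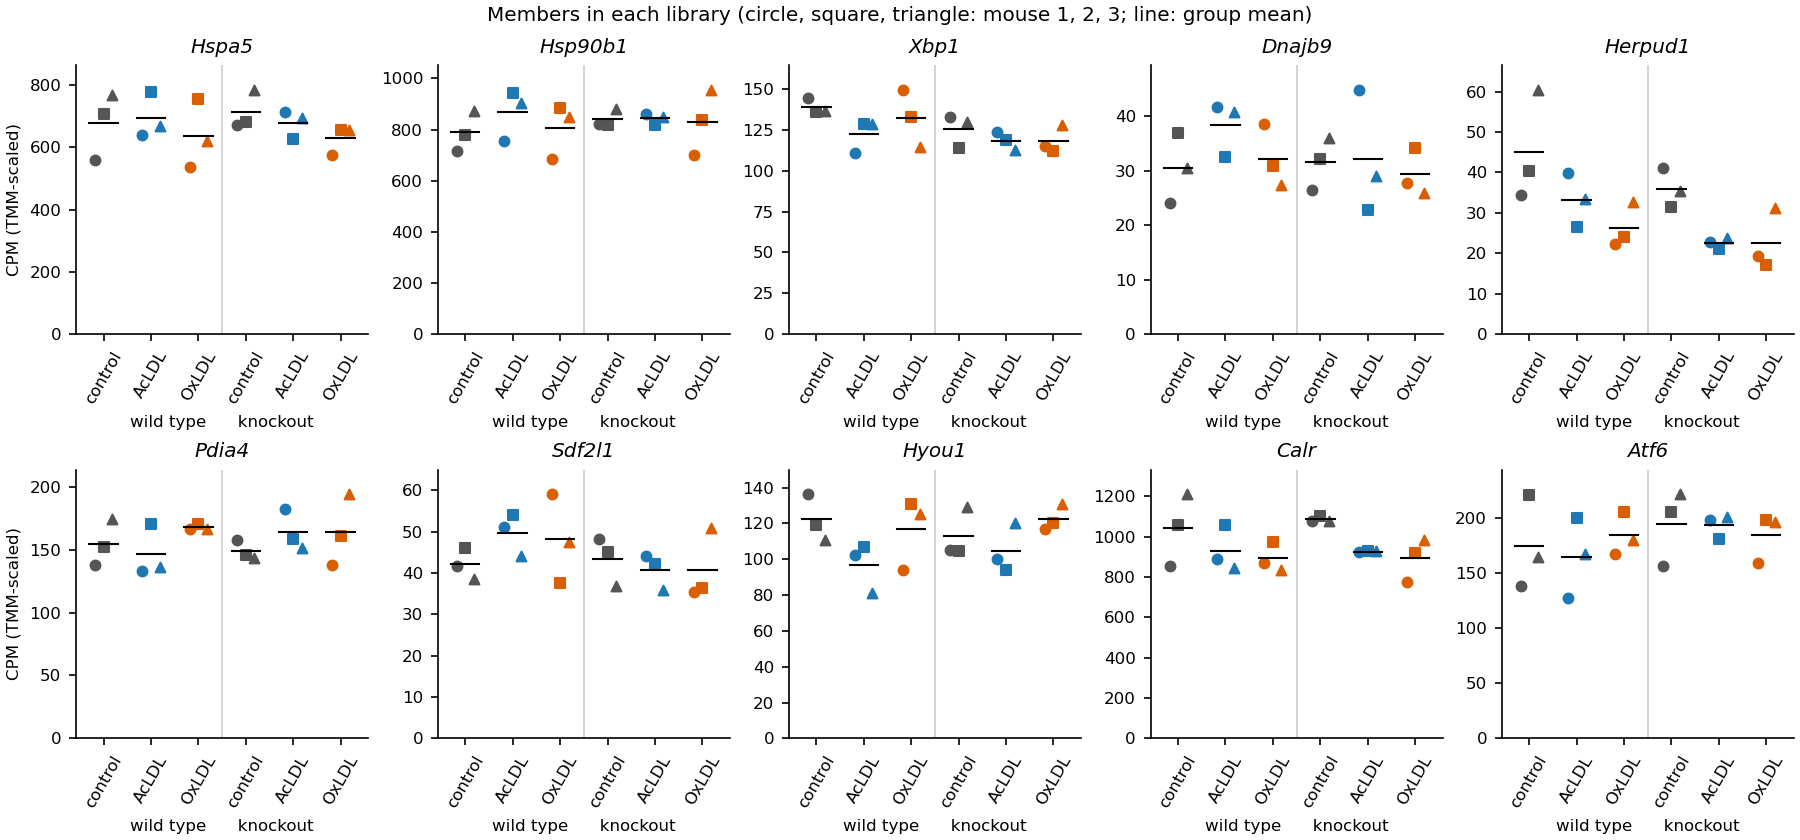
Level of each member (CPM, linear axis from 0) in each of the 18 libraries, by genotype and medium; circles, squares and triangles are mice 1, 2 and 3 and black lines are group means. *Herpud1* spans 17.1 to 60.5 CPM, with its control libraries at 31.6 CPM or more, while the groups of the other members overlap for the most part.

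*Herpud1* was the member that differed most with either LDL. It lies on chromosome 8 of GRCm38 (mm10) from 94386438 to 94395377 on the plus strand and shares 0% of its 31-base words with transcripts of other genes. It overlaps *Gm15890* on the other strand, but the words were compared on both strands, so the 0% also covers the annotated transcripts of that gene. The strand setting of the counting is not given in the sources used here, and reads from outside annotated transcripts were not examined. In wild type cells it was at 34.4, 40.5 and 60.5 CPM in control medium, at 39.9, 26.6 and 33.3 CPM with AcLDL and at 22.4, 24.1 and 32.6 CPM with OxLDL. In knockout cells it was at 41.0, 31.6 and 35.5 CPM in control medium, at 22.9, 21.1 and 23.8 CPM with AcLDL and at 19.4, 17.1 and 31.2 CPM with OxLDL. The OxLDL libraries were below all control libraries of the same genotype in both wild type and knockout cells. The AcLDL libraries were below all control libraries in knockout cells and overlapped with them in wild type cells.

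With OxLDL, over both genotypes, *Herpud1* fell by 0.71 on the log2 scale (standard error 0.17, 95% confidence interval −1.07 to −0.35), to 0.611 times its control level, and was the only one of the 10 members past the threshold (edgeR's quasi-likelihood test, adjusted p = 0.0126). Over all 12290 genes tested, 5.39% passed in this comparison. It was lower in 6 of 6 mice, by between 0.18 and 1.03 on the log2 CPM scale, with p = 0.031 in an exact two-sided permutation test, the smallest that 6 pairs allow, unadjusted among 20 such tests. The call was lost without wild type control replicate 3, the highest library (adjusted p = 0.0573), and without the 3 libraries of knockout mouse 1 (adjusted p = 0.119), of knockout mouse 2 (adjusted p = 0.0711) or of wild type mouse 3 (adjusted p = 0.0503), while the fold change stayed between −0.88 and −0.57.

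With AcLDL, over both genotypes, *Herpud1* had a log2 fold change of −0.57 (95% confidence interval −0.92 to −0.22), or 0.675 times control, which did not pass (edgeR, adjusted p = 0.1005), so that 0 of 10 members were called where 2.0% of all genes were. At an unadjusted p under 0.05, 1 member (*Herpud1*) and 1452 of all genes lay in this comparison. It was lower in 5 of 6 mice and higher in wild type mouse 1 (p = 0.0625, exact two-sided permutation test). With the mouse as a block, which compares the media within each mouse, *Herpud1* passed with AcLDL (adjusted p = 0.0121) and with OxLDL (adjusted p = 0.000672).

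Within single genotypes *Herpud1* had the largest fold change of the members. The log2 fold change of *Herpud1* with OxLDL was −0.77 in wild type (adjusted p = 0.154) and −0.65 in knockout cells (adjusted p = 0.228), and with AcLDL it was −0.46 (adjusted p = 0.722) and −0.67 (adjusted p = 0.380). In these 4 comparisons edgeR called 0 members, beside 0.472% of all genes with AcLDL in wild type, 0.521% with AcLDL in knockout, 1.34% with OxLDL in wild type and 2.32% with OxLDL in knockout cells. At an unadjusted p under 0.05 each held 1 member, *Hyou1* for AcLDL in wild type and *Herpud1* for the other comparisons, against 901, 926, 1233 and 1510 of all genes. With the mouse as a block, *Herpud1* passed with OxLDL in wild type cells (adjusted p = 0.0212), where the block raised the share of all genes called to 4.39%.

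*Calr*, the chaperone with the highest level, was the other member called in any fit. It lies on chromosome 8 from 84841850 to 84846934 on the minus strand. In wild type cells it was at 854, 1059 and 1212 CPM in control medium, at 887, 1059 and 847 CPM with AcLDL and at 871, 975 and 835 CPM with OxLDL. In knockout cells it was at 1076, 1102 and 1080 CPM in control medium, at 922, 931 and 927 CPM with AcLDL and at 777, 917 and 983 CPM with OxLDL. The knockout libraries with either LDL were all below the knockout control libraries, and those of wild type cells overlapped. Over both genotypes its log2 fold change was −0.25 with OxLDL (95% confidence interval −0.46 to −0.04, 0.840 times control, edgeR adjusted p = 0.174) and −0.20 with AcLDL (95% confidence interval −0.40 to 0.01, adjusted p = 0.457).

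With the mouse as a block, *Calr* passed with OxLDL (log2 fold change −0.25, standard error 0.07, adjusted p = 0.0113) and not with AcLDL (adjusted p = 0.0933). The block then called 2 members (*Herpud1* and *Calr*) with OxLDL, where 11.3% of all genes were called, and 1 member (*Herpud1*) with AcLDL, where 5.85% were. *Calr* was lower with OxLDL in 5 of 6 mice and with AcLDL in 4 of 6, and in wild type mouse 1, which had the lowest control value, its change was at most 0.05 on the log2 scale. That mouse was the only one in which *Calr* was not lower with OxLDL. Without its 3 libraries, *Calr* passed with OxLDL in the fit with no block (edgeR adjusted p = 0.0406). Leaving out the mouse without a fall favours a pass, so this adds no support. Without the 3 libraries of wild type mouse 3 the adjusted p was 0.559, and 2 of 25 alternatives called *Calr* with OxLDL.

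**Figure D2:**
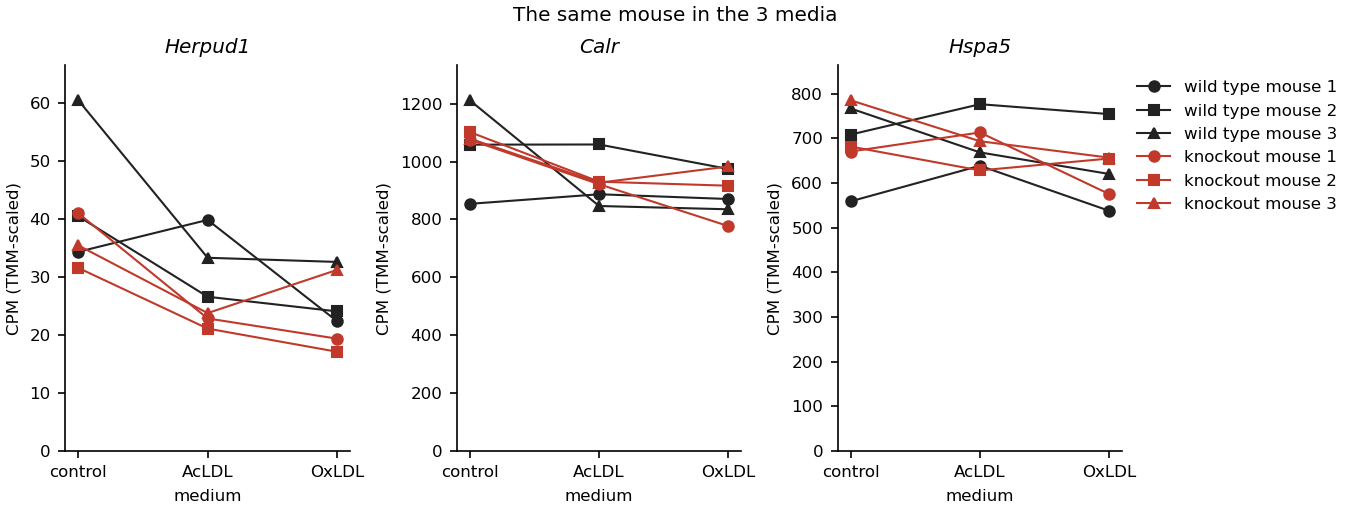
Level (CPM, linear axis from 0) of *Herpud1*, *Calr* and *Hspa5* in control medium, AcLDL and OxLDL; each line is 1 mouse, black for wild type and red for knockout. For *Herpud1* all 6 lines end lower with OxLDL than in control medium, and for *Calr* and for *Hspa5* 5 of 6 do.

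Macrophage markers also differed with medium. With OxLDL over both genotypes, *Cd14* (log2 fold change −1.10, edgeR adjusted p = 0.00389) and *Adgre1* (−0.57, adjusted p = 0.0329) fell and *Mertk* rose (0.56, adjusted p = 0.0461), 3 of 8 markers. The markers without *Lyz2* summed to 4299 to 7021 CPM in wild type and 5955 to 7136 CPM in knockout control cells, and to 3414 to 5580 and 4110 to 5041 CPM with OxLDL. Of the neutrophil markers, 0 of 6 tested passed. The part of these shifts in the values of *Herpud1* and *Calr* was not tested.

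Neither *Hspa5* nor *Hsp90b1* passed with either LDL, with or without the mouse as a block. *Hspa5* (chromosome 2, 34771970 to 34777547, plus strand) was at 559, 708 and 767 CPM in wild type control libraries, at 639, 777 and 669 CPM with AcLDL and at 538, 754 and 620 CPM with OxLDL. In knockout cells it was at 670, 682 and 785 CPM in control medium, at 713, 628 and 694 CPM with AcLDL and at 575, 655 and 657 CPM with OxLDL. All groups of wild type cells overlapped, and in knockout cells the OxLDL libraries lay below the control libraries. Its log2 fold change over both genotypes was −0.02 with AcLDL (95% confidence interval −0.23 to 0.20) and −0.13 with OxLDL (−0.35 to 0.08). As fold changes these intervals ran from 0.851 to 1.15 and from 0.785 to 1.06 times control.

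*Hsp90b1* (chromosome 10, 86690209 to 86705509, minus strand) was at 718, 777 and 871 CPM in wild type and 824, 820 and 881 CPM in knockout control cells. With AcLDL it was at 756, 942 and 905 CPM and at 860.5, 820 and 851 CPM, and with OxLDL at 684, 883 and 851 CPM and at 699, 839.5 and 956 CPM, in the same order of genotypes. The groups overlapped throughout, with log2 fold changes of 0.07 with AcLDL (95% confidence interval −0.14 to 0.28) and 0.01 with OxLDL (−0.20 to 0.21). This gene shares 12.3% of its 31-base words with other genes and overlaps *Gm15344* and *Gm25745* on its own strand and *1810014B01Rik* on the other, so that its counts are less certain. It was lowest in wild type mouse 1, with a mean of 719 CPM over the media against 867 and 876 CPM in the other wild type mice, as was *Hspa5* with 578 CPM against 746 and 685 CPM.

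*Hyou1* (chromosome 9, 44379490 to 44392369, plus strand) was at 136, 119 and 111 CPM in wild type control cells, at 103, 107 and 80.9 CPM with AcLDL and at 94.1, 131 and 125 CPM with OxLDL. In knockout cells it was at 105, 105 and 129 CPM in control medium, at 100.1, 93.85 and 120.0 CPM with AcLDL and at 117, 120.4 and 131 CPM with OxLDL. In wild type cells the AcLDL libraries were all below the control libraries, and in knockout cells they overlapped. Its level with AcLDL was lower in 6 of 6 mice (p = 0.031, exact two-sided permutation test, the smallest possible), with a log2 fold change of −0.22 over both genotypes (95% confidence interval −0.44 to 0.00), but it did not pass in edgeR (adjusted p = 0.426, and 0.158 with the mouse as a block). With OxLDL the log2 fold change was 0.04 (−0.18 to 0.25).

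**Figure D3:**
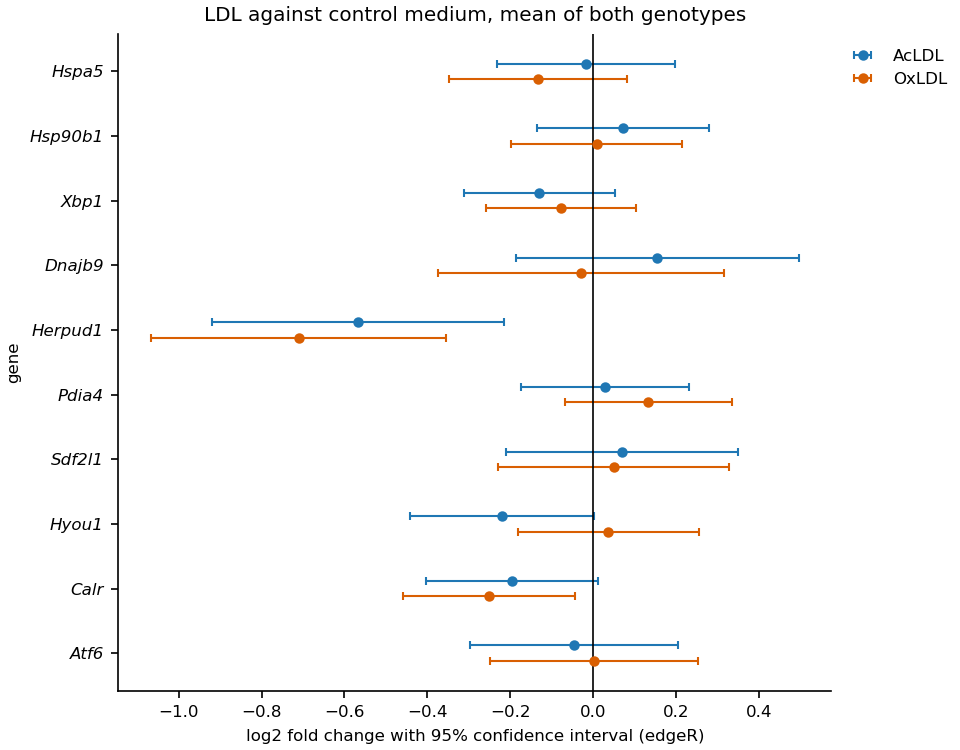
Log2 fold change of each member with AcLDL (blue) and OxLDL (orange) against control medium, as the mean of both genotypes; points are edgeR estimates and bars 95% confidence intervals. These intervals come from the fit without the mouse as a block. The interval of *Herpud1* lies below 0 for both LDLs and that of *Calr* for OxLDL, and the other intervals reach 0. With the block, those of *Calr* (−0.34 to −0.06) and *Hyou1* (−0.40 to −0.04) with AcLDL also lay below 0. So did that of *Hspa5* with OxLDL (−0.268 to −0.002), and none of these passed after adjustment.

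The cofactors of BiP showed no common direction. *Dnajb9* (chromosome 12, 44205559 to 44210326, minus strand) was at 24.1, 37.0 and 30.6 CPM in wild type control cells, at 41.8, 32.5 and 40.8 CPM with AcLDL and at 38.5, 30.9 and 27.4 CPM with OxLDL, and in knockout cells its libraries ranged from 22.8 to 44.9 CPM, both extremes with AcLDL. It was higher with AcLDL in 3 of 6 mice and lower in the others, with a log2 fold change of 0.15 (95% confidence interval −0.19 to 0.50), and of −0.03 with OxLDL (−0.38 to 0.32). It shares 10.8% of its 31-base words with other genes and overlaps *Mir5627* on the other strand. *Sdf2l1* (chromosome 16, 17130138 to 17132383, minus strand) was at 41.8, 46.1 and 38.6 CPM in wild type control cells against 51.2, 53.9 and 44.2 CPM with AcLDL, and at 48.2, 45.2 and 36.7 CPM in knockout control cells against 44.1, 42.2 and 36.0 CPM. Over both genotypes its log2 fold change was 0.07 with AcLDL (−0.21 to 0.35) and 0.05 with OxLDL (−0.23 to 0.33).

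*Pdia4* (chromosome 6, 47796141 to 47813430, minus strand) ranged from 133 to 194 CPM over all libraries, with log2 fold changes of 0.03 with AcLDL (95% confidence interval −0.17 to 0.23) and 0.13 with OxLDL (−0.07 to 0.33). Its group means in wild type cells were 155 ± 18.5 CPM (SD, n = 3) in control medium and 168 ± 2.26 CPM (SD, n = 3) with OxLDL, and these groups overlapped.

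Neither regulator, *Xbp1* or *Atf6*, passed with either LDL over both genotypes, with or without the mouse as a block. *Xbp1* (chromosome 11, 5520659 to 5525893, plus strand) was at 145, 136 and 136 CPM in wild type control cells, at 111, 129 and 129 CPM with AcLDL and at 149.6, 133 and 115 CPM with OxLDL. In knockout cells it was at 133, 114 and 129.6 CPM, at 124, 119 and 113 CPM and at 115, 112 and 128 CPM. Wild type libraries with AcLDL lay below the wild type control libraries, and the other groups overlapped with their control. Its log2 fold change was −0.13 with AcLDL (95% confidence interval −0.31 to 0.05, lower in 5 of 6 mice) and −0.08 with OxLDL (−0.26 to 0.10). *Atf6* (chromosome 1, 170704674 to 170867771, minus strand) ranged from 127 to 222 CPM, with its lowest value in wild type mouse 1 with AcLDL, and had log2 fold changes of −0.05 (−0.30 to 0.21) and 0.00 (−0.25 to 0.25).

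Over both genotypes the members' median log2 fold change was −0.03 with AcLDL and −0.01 with OxLDL, against −0.01 and 0.01 for all genes tested. With AcLDL 6 members were lower and 4 higher than in control medium, and with OxLDL 5 were lower and 5 higher, while 51.1% and 48.4% of all genes were lower. In knockout cells alone, 7 of 10 members were lower with AcLDL (median −0.08, against 0.00 for all genes, of which 50.7% were lower). With OxLDL 8 of 10 were lower (median −0.08, against 0.00 and 49.3%). In wild type cells 6 were lower with AcLDL (median −0.08) and 5 with OxLDL (median −0.01). These counts were not tested, and the genotypes' medians were not compared.

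The comparison of genotypes asked whether loss of *Slc7a7* was accompanied by other levels of these genes. In control medium the members' log2 fold changes of knockout against wild type lay between −0.33 (*Herpud1*) and 0.15 (*Atf6*), with AcLDL between −0.55 (*Herpud1*) and 0.22 (*Atf6*), and with OxLDL between −0.21 (*Herpud1*) and 0.07 (*Hyou1*). *Herpud1* was the lowest member in each medium, with all 3 knockout libraries below the wild type libraries with AcLDL and overlapping groups in the other media. None of the 10 members passed in edgeR, with 0 called in control medium (0.00814% of all genes), 0 with AcLDL (0.0163%) and 0 with OxLDL (0.00814%). At an unadjusted p under 0.05 these held 0, 1 and 0 members, the one being *Herpud1* with AcLDL (adjusted p = 0.990), against 491, 601 and 587 of all genes. For *Hspa5* the 95% confidence intervals of the difference were −0.23 to 0.37, −0.34 to 0.27 and −0.32 to 0.28 in control medium, AcLDL and OxLDL. Markers also differed with genotype. *Lyz2*, the locus that carries Cre, was lower in knockout cells with AcLDL (log2 fold change −1.23, edgeR adjusted p = 0.0149) and with OxLDL (−1.24, adjusted p = 0.0263). In control medium *Lyz2* was also lower in knockout cells, but did not pass (−0.87, edgeR adjusted p = 0.562). The neutrophil markers summed to 78.9 to 216 CPM in wild type and 25.5 to 64.6 CPM in knockout cells with AcLDL, and to 142 to 252 against 62.9 to 114 CPM with OxLDL, with no overlap in either, while the groups overlapped in control medium (72.9 to 126 against 52.0 to 141 CPM). None of the 6 neutrophil markers tested passed after adjustment, but 4 with AcLDL and 5 with OxLDL were lower at an unadjusted p under 0.05. The part of these shifts in the values of *Herpud1* was not tested.

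**Figure D4:**
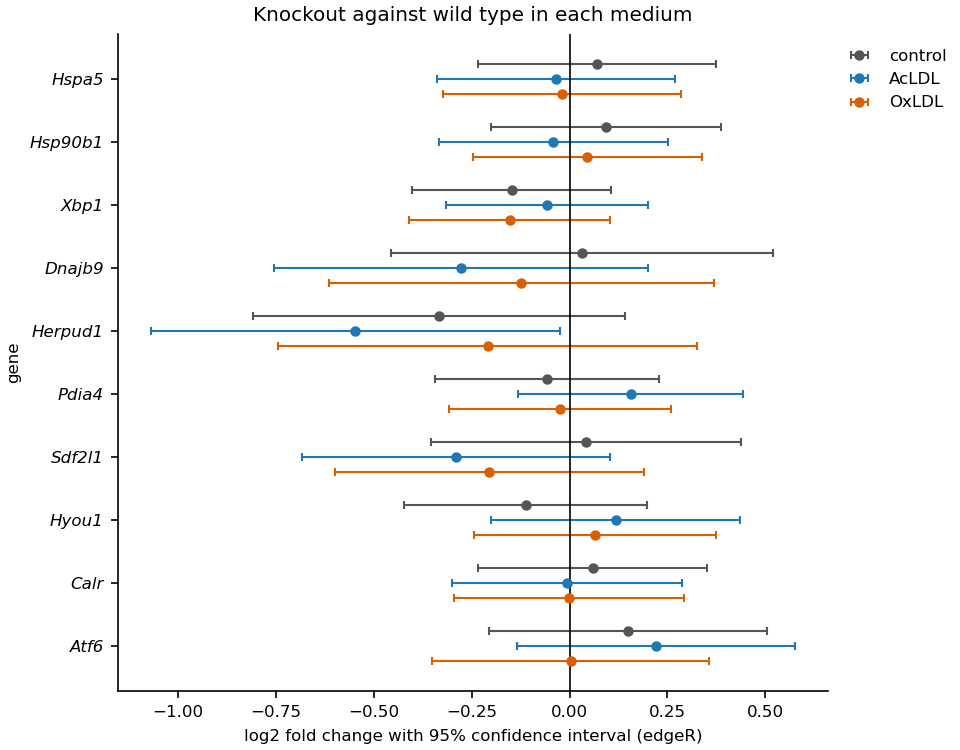
Log2 fold change of each member in knockout against wild type macrophages in control medium (grey), AcLDL (blue) and OxLDL (orange); points are edgeR estimates and bars 95% confidence intervals. All intervals reach 0 except that of *Herpud1* with AcLDL, at −0.55, which did not pass after adjustment over all genes.

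Whether the response differed by genotype was tested as an interaction. With AcLDL the members ranged from −0.33 (*Sdf2l1*) to 0.23 (*Hyou1*) on the log2 scale and with OxLDL from −0.25 (*Sdf2l1*) to 0.18 (*Hyou1*). edgeR called 0 members and 0 genes in either (0.0% and 0.0%), and at an unadjusted p under 0.05 there were 0 members and 327 and 338 of all genes. For *Herpud1* the interaction was −0.21 with AcLDL and 0.12 with OxLDL.

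The rest of the pathway was read from 8 lists of ER and chaperone genes, 112 genes of which 109 were tested. Over both genotypes, edgeR called 0 of them higher and 1 lower with AcLDL, and 1 higher and 2 lower with OxLDL, where 2.0% and 5.39% of all genes were called, so that the lists held no larger share of calls than all genes. At an unadjusted p under 0.05 were 7 of 109 (6.42%) with AcLDL, against 11.8% of all genes, and 11 (10.1%) with OxLDL, against 16.6%. The median log2 fold change of the 109 genes was −0.05 with AcLDL and −0.02 with OxLDL.

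None of the other ER chaperones and cofactors (14 tested), the disulfide isomerases and oxidases (13), the genes of ER-associated degradation (19), of the translocon and signal peptidase (14) or of N-glycosylation (11) passed with either LDL over both genotypes in the fit without the block. With the mouse as a block, *Edem3*, a mannosidase-like protein of ER-associated degradation, rose with OxLDL (log2 fold change 0.32, adjusted p = 0.0121) and *Ganab*, the catalytic subunit of glucosidase II, fell (−0.29, adjusted p = 0.0249). The lists' median log2 fold changes without the block were between −0.08 and 0.01. Among the 15 genes of the UPR sensors, proteases and the PERK branch, *Atf3*, a transcription factor of the stress response, rose with OxLDL (log2 fold change 0.44, adjusted p = 0.00600). It was at 80.8, 120.0 and 90.4 CPM in wild type control cells and 125, 129 and 144 CPM with OxLDL, and at 125, 148 and 132 CPM in knockout control cells and 178, 207 and 164 CPM with OxLDL. The OxLDL libraries of either genotype lay above its control libraries. *Atf4*, which acts upstream of *Atf3* in the PERK branch, and *Ddit3* (CHOP), a target of ATF4, had log2 fold changes of 0.02 and 0.43 with OxLDL and did not pass (adjusted p = 0.958 and 0.502). *Ddit3* was at 6.12 to 23.3 CPM over the libraries, with only 7 to 26 counts in each. Gene counts do not show the level of ATF4 protein, so the activity of this branch was not measured here.

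Of the 12 genes of COPII export from the ER, *Surf4*, a cargo receptor, fell with OxLDL (log2 fold change −0.31, adjusted p = 0.0480). It was at 196, 201 and 211 CPM in wild type control cells and 176, 151 and 208 CPM with OxLDL, and at 211, 170 and 179 CPM in knockout control cells and 131, 146 and 139 CPM with OxLDL. The groups overlapped in wild type cells and were apart in knockout cells. The call was lost under library size scaling (adjusted p = 0.0975), RLE scaling (0.0527), no filter (0.0952) and a fit limited to the libraries compared (0.0943), and also without any one of 11 of the 12 libraries (adjusted p up to 0.168), the exception being wild type OxLDL replicate 3. *Sec24a*, a subunit of the COPII coat, rose with OxLDL in knockout cells from 34.4, 31.6 and 40.6 CPM to 52.2, 57.5 and 52.6 CPM (log2 fold change 0.61, adjusted p = 0.0472), and was at 52.9, 54.4 and 54.7 CPM in wild type control cells and 43.0, 54.3 and 52.8 CPM with OxLDL. That call was lost in DESeq2 (adjusted p = 0.0833), with no filter (0.112) and without any one of the 6 libraries (up to 0.188).

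The cytosolic HSP70 genes *Hspa1a* and *Hspa1b* are near-identical copies between which reads can be divided arbitrarily, so that each alone is uncertain. *Hspa1a* was called lower with AcLDL (log2 fold change −1.52, adjusted p = 0.0250) and *Hspa1b* with OxLDL (−2.11, adjusted p = 0.00263). Summed, they were at 25.1, 57.2 and 27.0 CPM in wild type control cells, at 16.1, 22.2 and 17 CPM with AcLDL and at 26.0, 14.8 and 9.13 CPM with OxLDL. In knockout cells the sum was at 44.0, 66.2 and 47.1 CPM in control medium, at 19.7, 46.1 and 37.7 CPM with AcLDL and at 13.5, 13.7 and 15.6 CPM with OxLDL. The sum with OxLDL was below every knockout control library and overlapped with control in wild type cells. With AcLDL the sum was below every wild type control library and overlapped with control in knockout cells. *Hspa1a* alone held only 2 to 5 counts in the wild type AcLDL libraries. The *Hspa1a* call with AcLDL was lost without wild type control replicate 3 (adjusted p = 0.0928), without any one of the wild type AcLDL libraries (0.0541 to 0.0690) and without knockout control replicate 2 (0.0657) or 3 (0.0507).

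With the mouse as a block, the 109 pathway genes held 3 calls with AcLDL (*Hspa1a* and *Surf4* lower, *Atf3* higher) and 7 with OxLDL (*Atf3* and *Edem3* higher, *Hspa1b*, *Hspa8*, *Surf4*, *Hspa1a* and *Ganab* lower), where 5.85% and 11.3% of all genes were called. In that fit *Atf3* with AcLDL had an adjusted p of 0.0122, *Surf4* with AcLDL of 0.0435 and *Hspa1a* with OxLDL of 0.0165.

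**Figure D5:**
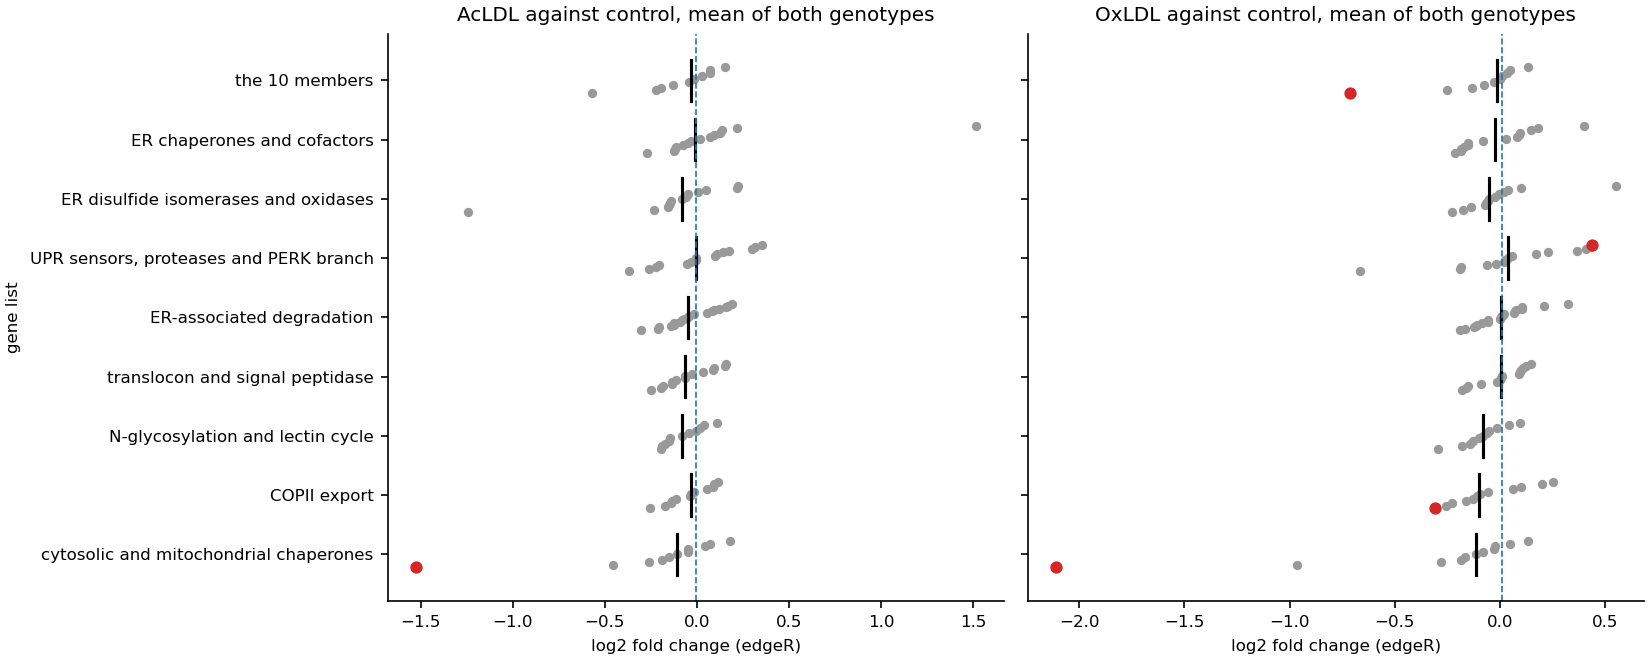
Log2 fold change with AcLDL (left) and OxLDL (right), mean of both genotypes, of the 10 members and of the 8 other lists; points are genes, red where the adjusted p is under 0.05, black bars list medians and the dashed line the median of all genes tested. Red points are *Hspa1a* with AcLDL, and *Herpud1*, *Surf4*, *Hspa1b* (lower) and *Atf3* (higher) with OxLDL; list medians stay between −0.11 and 0.04.

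Members varied together in part. Over the 18 libraries, the 45 pairs of members had a median Pearson correlation of log2 CPM of 0.14, from −0.42 to 0.76, and 5 pairs were over 0.5. These were *Hspa5* with *Hsp90b1* (0.76), with *Calr* (0.74) and with *Atf6* (0.59), *Herpud1* with *Calr* (0.56) and *Hsp90b1* with *Atf6* (0.53). After subtraction of the group means, *Hspa5* with *Hsp90b1* was at 0.80 and *Herpud1* with *Calr* at 0.30. Some other pairs rose and some fell. *Pdia4* with *Calr* went from 0.32 to 0.80, *Hsp90b1* with *Pdia4* from 0.49 to 0.70 and *Hsp90b1* with *Calr* from 0.46 to 0.68, while *Xbp1* with *Herpud1* went from 0.33 to −0.16. The libraries share mice and media, so these values are a description. Among 6634 genes of at least 20 mean CPM outside the lists, those most like the mean of the members' standardised levels over the 18 libraries were *Grn* (0.85), *Smap2* (0.81), *Papss1* (0.80), *Lrrc41* (0.78) and *Vav1* (0.78).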

How the data were processed

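Libraries were made by the authors with the SMARTer v2 stranded total RNA Pico kit and read single-end. The authors ran the nf-core pipeline, with Trim Galore for trimming, STAR for alignment to mm10 and Salmon for quantification on an Ensembl transcriptome; the strand setting is not given in the sources used here. The deposited values are estimated counts per gene, not normalized. Counts were rounded, genes were filtered with filterByExpr (minimum count 2, minimum total 10) and 12290 remained. The 6 groups were fitted with edgeR 4.0.16 (R 4.3.3; TMM, quasi-likelihood test, 12 residual degrees of freedom, Benjamini-Hochberg over all genes, threshold 0.05). The study's methods name DESeq2, which was an alternative here (1.42.0). Means over both genotypes weight each genotype equally. Changes within mice were tested by exact sign-flip permutation on log2 CPM (prior count 2). The labels give mouse identifiers that recur in each medium, so libraries are paired by mouse; deviations of same-mouse libraries correlated at 0.0551 to 0.293, over 0.1 in 14 of 18 pairs. The block used mouse as a fixed term, or limma 3.58.1 with a random block between genotypes. Replicate libraries differed by more than counting (chi-square at least 2.03 times its degrees of freedom). Coordinates are from GENCODE on GRCm38, promoters from RefSeq. The procedure was tested on simulated counts. Members and lists were chosen with earlier results of these data known. Named genes were the members, *Slc7a7*, up to 3 genes of each list with the smallest p past the threshold, and the 5 genes most like the members. *Cd14*, *Adgre1*, *Mertk*, *Lyz2*, *Atf4*, *Ddit3*, *Edem3*, *Ganab* and *Hspa8* were added after values were seen. Intervals and floors cover counting error and sample spread only, since reads carried no molecular identifiers. Other experiments of the study were not analysed here.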

Additional observations from a re-analysis of the deposited data

Results flagged for a closer look

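The changes of the 10 members with each LDL were screened for a mouse far from the others of the 6 (Dixon's test), 20 groups in all, of which chance flags about 1 in 20. *Herpud1* with AcLDL was flagged because wild type mouse 1 was higher by 0.21 on the log2 CPM scale, whereas the other mice were between −0.83 and −0.55. Without that mouse, *Herpud1* passed with AcLDL (log2 fold change −0.71, edgeR adjusted p = 0.0189). Leaving out the only mouse that was not lower favours a pass, so this adds no support. Without wild type mouse 3 the adjusted p was 0.448, and 4 of 25 alternatives called *Herpud1* with AcLDL. *Hyou1* with OxLDL was flagged because wild type mouse 1 was at −0.53, whereas the others were between 0.02 and 0.20. Without wild type mouse 1 the log2 fold change was 0.14 and did not pass.

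*Sdf2l1* with AcLDL was flagged because all 3 wild type mice were higher (by 0.19 to 0.29 on the log2 CPM scale) and all 3 knockout mice lower (−0.12 to −0.03). The interaction in edgeR was −0.33 (adjusted p = 1.0) and did not pass.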

How the results depend on the processing

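The OxLDL call of *Herpud1* held in 21 of 25 alternatives and was lower in all of them. For the LDL comparisons the depth limits *Herpud1*, *Dnajb9* and *Sdf2l1* most, with 23, 26 and 42 reads in their lowest library. No cause of the changes below was tested. Over all log2 fold changes recomputed, 880 kept direction and side of the threshold, 40 turned direction, 15 gained and 33 lost a call.

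Members called over both genotypes numbered 1 with AcLDL (0 in the fit as reported) with no filter on low counts and also under the mouse block; leaving out libraries or mice gave 0 to 1 with AcLDL and 0 to 2 with OxLDL (1 as reported). The block gave 2 with OxLDL and, in wild type cells, 1. It changed no other call of a member. A fit with the mouse as block was possible in all comparisons.

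Genes called over the whole table changed as follows. With AcLDL in wild type cells (58 as reported) there were 176 with no filter, 265 under the block and 33 in a fit limited to the libraries compared, and 38 to 123 with a library left out. With AcLDL in knockout cells (64) there were 188, 307 and 194, and 31 to 48. With OxLDL in wild type cells (165) there were 337, 539 and 65, and 91 to 246. With OxLDL in knockout cells (285) there were 491, 882 and 751, and 147 to 191. Over both genotypes there were 438 with no filter and 719 under the block with AcLDL (246), with 157 to 404 when a library was left out, and 1393 under the block with OxLDL (662).

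Between genotypes in control medium (1) there were 28 genes with no filter, 3 in DESeq2, 2 under the block and 0 in the smaller fit, and 0 to 1 with a library left out. With AcLDL (2) there were 45 with no filter, 6 in DESeq2 and 4 in the smaller fit, and 1 to 3. With OxLDL (1) there were 34 with no filter and 0 in the smaller fit, and 0 to 1. For the interaction with AcLDL (0) there were 18 with no filter, 1 in DESeq2, 5 under the block and 1 in the smaller fit, and with OxLDL (0) 15 with no filter.

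Most directions that turned belong to values near 0. The exception was *Hspa1b* with AcLDL over both genotypes, at −0.46 in the fit as reported, which turned with 1 of 12 libraries left out. Scaling by library size alone gave 0.0088 for *Atf6* and 0.037 for *Hspa5* with AcLDL and 0.013 for *Dnajb9* with OxLDL, over both genotypes, and mean changes within mice of 0.040 for *Hspa5* and 0.015 for *Atf6* with AcLDL and of 0.040 for *Hsp90b1* and 0.029 for *Dnajb9* with OxLDL. With a library or mouse left out, the AcLDL values over both genotypes ran from −0.12 to 0.062 for *Atf6*, −0.079 to 0.036 for *Hspa5*, −0.029 to 0.082 for *Pdia4* and −0.63 to 0.033 for *Hspa1b*. The OxLDL values ran from −0.067 to 0.11 for *Atf6*, −0.096 to 0.056 for *Dnajb9*, −0.043 to 0.070 for *Hsp90b1*, −0.018 to 0.14 for *Hyou1* and −0.047 to 0.13 for *Sdf2l1*. *Hyou1* ran from −0.14 to 0.071 with OxLDL in wild type cells and from −0.051 to 0.15 between genotypes with OxLDL, and the *Herpud1* interaction with OxLDL from −0.20 to 0.33. Leaving out all libraries of a mouse was added after seeing the data.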
